A study of Mus musculus with 12 samples.

Results

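Complement C3, the C5 gene Hc and the receptors C3ar1, C5ar1 and C5ar2 were followed across 12 primary mammary tumours of mice. These 5 genes were taken by name, as those of the source proteins of the anaphylatoxins C3a and C5a and of their receptors, by a rule that uses no measured value. All 5 were found among the 56860 genes of the deposited table, and all 5 passed the filter on low counts beside 30660 genes in all. Their symbols were used as deposited.

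Tumours were taken at 4.5 months from 3 strains, with 4 tumours each. Every strain carried MMTV-PyMT, a transgene that expresses the polyoma middle T oncogene from the MMTV promoter, which is active mainly in mammary epithelium. S1pr1_KO tumours carried MMTV-Cre with S1pr1fl/fl, a floxed sphingosine-1-phosphate receptor gene. C3_KO tumours carried MMTV-Cre with an allele written C3Tdt, whose make-up the labels do not spell out. For WT tumours the strain label names MMTV-PyMT alone, while the design text adds MMTV-Cre. Since MMTV drives Cre mainly in epithelium, stromal and immune cells of a knockout tumour can keep the targeted gene. No background strain is named. Nor is it stated that each tumour is from a different mouse, so p-values measure only the spread between these samples, which may be technical. The stated question was how conditional loss of C3 or S1pr1 affects primary tumours.

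C3 is the protein on which the classical, lectin and alternative pathways of complement converge. Convertases cut it into C3b, which tags surfaces, and the small peptide C3a, and the C5 convertase then cuts C5 into C5b, which seeds the membrane attack complex, and C5a. C3a signals through C3ar1 and C5a through C5ar1, both G protein-coupled receptors known on myeloid cells, whereas C5ar2 binds C5a without coupling to G proteins and recruits arrestins. Liver is the main source of circulating C3 and C5, and epithelial cells, fibroblasts and macrophages can also make C3. Messenger RNA levels do not show how much C3 or C5 protein reached a tumour from blood. Some inbred strains carry a frameshift in Hc that abolishes secreted C5, which gene counts cannot tell.

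The gene starts of the 2 source proteins are shown because C3 is known to be induced through C/EBP, NF-kB and STAT factors, with Hc set beside it. The stretches are the 120 bases before the start of each gene in the RefSeq table for build GRCm38.p6, an older build than that of the authors, and both genes lie on the minus strand. Capitals mark matches, on either strand, to TTNNGNAA for C/EBP factors, TTCNNNGAA for STAT factors, or GGG and CC around any 5 bases for NF-kB.
C3, chr17:57228137-57228256: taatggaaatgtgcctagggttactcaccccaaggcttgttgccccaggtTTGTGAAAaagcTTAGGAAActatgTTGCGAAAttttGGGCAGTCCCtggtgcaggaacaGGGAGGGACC
Hc, chr2:35061413-35061532: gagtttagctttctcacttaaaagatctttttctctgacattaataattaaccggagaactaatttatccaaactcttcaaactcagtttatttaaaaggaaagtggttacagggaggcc
The C3 stretch held 3 C/EBP matches and 2 NF-kB matches, none overlapping another, and no STAT match. The Hc stretch held none of the 3 motifs. Of the 27025 promoters of the same length in that table, 17.9% held a C/EBP match, 30.9% an NF-kB match and 3.20% a STAT match, and 98 promoters, or 0.363%, held 3 or more C/EBP matches. Of the receptors, C3ar1 held 1 NF-kB match, and C5ar1 and C5ar2 held none of the 3. A match is a description of letters and not a site of binding.

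Libraries differed in depth and in tissue content. Total counts ran from 230431880 to 380336448 in S1pr1_KO, 237064382 to 424584813 in C3_KO and 327122244 to 484002378 in WT. Levels below are CPM (counts set against the TMM-scaled library total) unless FPKM is named. Milk protein transcripts stood apart in C3_KO replicate 3, at a mean log2 CPM of 12.6 for 5 genes, against 4.46 to 7.15 in the other 11 tumours, and neutrophil markers were also highest there, at 2.30. Salivary gland transcripts stood apart in S1pr1_KO replicates 1 and 4, and B cell markers in S1pr1_KO replicates 1 and 2. In whole tumours, fewer cells of a type and less RNA per cell cannot be told apart.

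Compared per gene length, C3 was the most abundant of the 5 in every tumour. Its FPKM (counts divided by gene length and by the library's total) had a median of 16.8 over 12 tumours and lay between 7.44 and 46.8. The receptors and Hc lay about an order of magnitude lower, with median FPKM of 1.83 for C5ar2, 1.75 for C3ar1, 1.29 for C5ar1 and 0.930 for Hc. C3 exceeded C5ar2, the nearest member, by 3.31 to 23.5 times within a tumour. The neighbours C5ar2 and C3ar1 had no fixed order. C3ar1 was the higher of the pair in 3 of 4 S1pr1_KO tumours, 0 of 4 C3_KO tumours and 3 of 4 WT tumours. The place of C5ar2 also depends on counts of an overlapping gene, given further on. C3ar1 was higher than C5ar1 in 11 of 12 tumours, with a median ratio of 1.40. C5ar2 was higher than C5ar1 in 9 of 12, and C5ar1 higher than Hc in 9 of 12, so these neighbours changed places in some tumours.

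**Figure D1:**
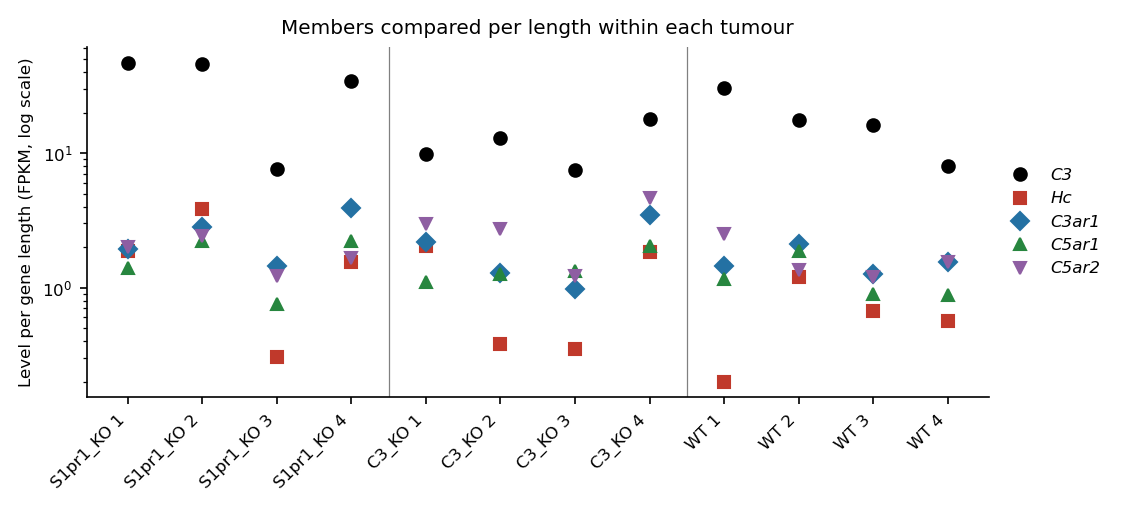
Level of each gene per gene length (FPKM, log scale) in the 4 tumours of S1pr1_KO, C3_KO and WT, 1 symbol per gene. C3 lies above the other 4 genes in 12 of 12 tumours, from 7.44 to 46.8 FPKM, and Hc covers the widest range, from 0.201 to 3.87 FPKM.

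Among 44 complement genes ordered by median FPKM, C3 came at rank 10. Above it stood the fluid-phase regulator Clu at a median of 118 FPKM, the C1q chains C1qa at 109 and C1qb at 99.8, the classical component C4b at 50.3, the alternative pathway proteases Cfd at 36.9 and Cfb at 20.4, and the C1 inhibitor Serping1 at 20.4. The third C1q chain C1qc and the membrane regulator Cd59a filled the remaining places above C3. C5ar2, C3ar1, C5ar1 and Hc came at ranks 21, 22, 25 and 27.

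C3, the source of C3a, was present in all 4 tumours of its own knockout strain. It stood at 47.8, 74.5, 41.6 and 75.1 CPM in C3_KO tumours, against 182, 89.2, 90.3 and 43.3 CPM in WT tumours. The C3_KO tumours lay close together and at the lower end, while WT replicate 1 was high and WT replicate 4 as low as the lowest C3_KO tumours, so the groups overlapped. S1pr1_KO tumours had 273, 182, 43.4 and 152 CPM of C3. S1pr1_KO replicate 3 lay among the lowest of all 12, and its other 3 tumours lay above every C3_KO tumour. The mean was 163 ± 94.5 CPM in S1pr1_KO, 59.7 ± 17.6 CPM in C3_KO and 101 ± 58.2 CPM in WT (SD, n = 4 each). C3 counts were thus not absent under the label C3_KO. A count summed over a gene cannot show a missing exon or the cell of origin, so it checks the label only in part.

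Adipocytes, which are known to make C3, differed between tumours. The summed level of 6 adipocyte markers was 11.3 to 505 CPM in S1pr1_KO, 20.3 to 133 CPM in C3_KO and 5.58 to 130 CPM in WT, with none of the 6 at 0. S1pr1_KO replicates 1 and 2, high in C3, had the highest sums, at 505 and 382 CPM, whereas WT replicate 1, also high in C3, had the lowest. The Pearson r of C3 with the mean of these markers over 12 tumours was 0.44 (permutation adjusted p = 0.2715), or -0.067 without S1pr1_KO replicates 1 and 2. How much of the C3 values adipocyte content accounts for was not tested.

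Hc, the gene of C5, was the most variable of the 5. It stood at 13.2, 18.6, 2.12 and 8.36 CPM in S1pr1_KO tumours, 11.9, 2.65, 2.38 and 9.37 CPM in C3_KO tumours, and 1.45, 7.39, 4.57 and 3.72 CPM in WT tumours. High and low tumours occurred in each knockout strain: S1pr1_KO replicates 1, 2 and 4 and C3_KO replicates 1 and 4 lay above every WT tumour, and S1pr1_KO replicate 3 and C3_KO replicates 2 and 3 lay among the low WT values. Of 5 hepatocyte markers, Alb stood at no more than 0.527 CPM and Apoa1 at no more than 0.135 CPM in any tumour, and Apoh lay between 1.09 and 2.89 CPM. Fgb was 45.9 CPM in C3_KO replicate 1 and no more than 9.87 CPM elsewhere, and Ttr was 8.47 CPM in S1pr1_KO replicate 1 and no more than 0.230 CPM elsewhere. Their summed level was 3.56 to 10.4 CPM in S1pr1_KO, 3.75 to 48.9 CPM in C3_KO and 7.92 to 11.7 CPM in WT. The Pearson r of Hc with the mean of these markers over 12 tumours was 0.61 and did not pass (permutation adjusted p = 0.125). How much of the Hc values liver content accounts for was not tested.

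The receptor genes varied less. C3ar1, the C3a receptor, stood at 9.48, 9.28, 6.97 and 14.4 CPM in S1pr1_KO tumours, 8.83, 6.11, 4.59 and 12.1 CPM in C3_KO tumours, and 7.21, 8.91, 5.94 and 7.04 CPM in WT tumours. Replicate 4 of each knockout strain was the highest of its group, and all groups overlapped. C5ar1, the signalling C5a receptor, stood at 4.09, 4.42, 2.18 and 4.85 CPM in S1pr1_KO tumours, 2.63, 3.59, 3.69 and 4.29 CPM in C3_KO tumours, and 3.41, 4.75, 2.51 and 2.37 CPM in WT tumours. Its 12 values spanned 2.23-fold, the narrowest range of the 5 genes. C5ar2, the second C5a receptor, stood at 8.02, 6.58, 4.80 and 5.07 CPM in S1pr1_KO tumours, 10.0, 10.9, 4.69 and 13.4 CPM in C3_KO tumours, and 10.4, 4.76, 4.71 and 5.78 CPM in WT tumours. In C3_KO, 3 of 4 tumours were high and replicate 3 was at the level of the low WT tumours, and in WT only replicate 1 was high.

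**Figure D2:**
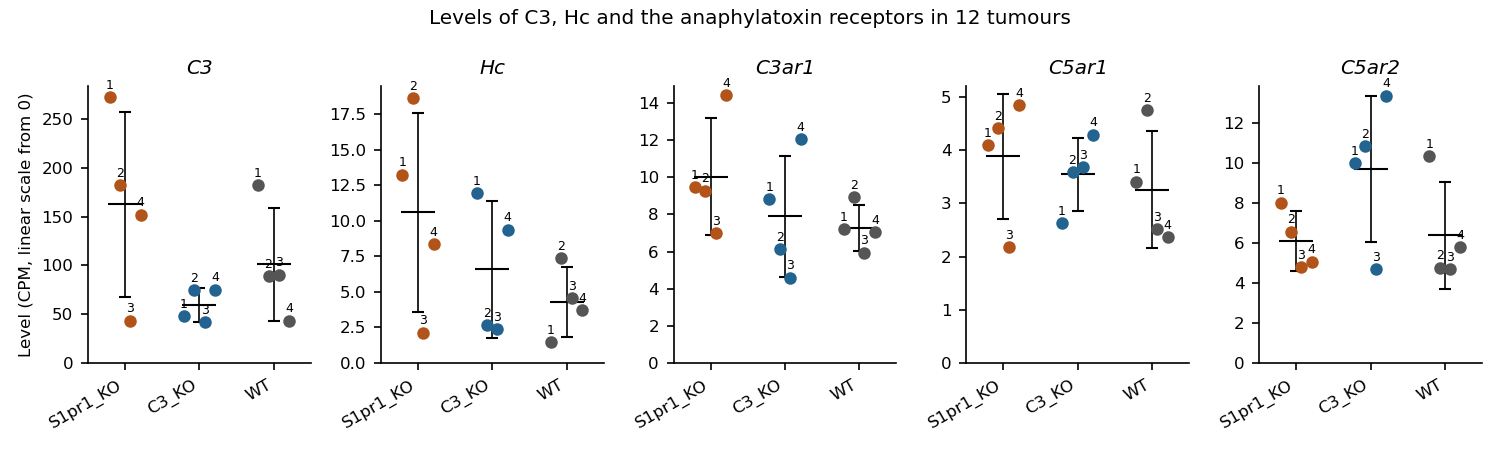
Level in CPM (linear axes from 0, 1 panel per gene) in S1pr1_KO, C3_KO and WT; points are tumours with their replicate number, bars are the mean and SD of 4. The 3 groups overlap in every panel, and S1pr1_KO replicate 3 is the lowest of its group in all 5.

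The spread among tumours of one genotype set C3 and Hc apart from the receptors. From the lowest to the highest of 12 tumours, C3 spanned 6.55-fold and Hc 12.9-fold, against 3.14-fold for C3ar1 and 2.85-fold for C5ar2. Set beside genes of similar level, the within-genotype SD of log2 CPM lay at percentile 96.2 for C3 and 93.8 for Hc. It lay at percentile 51.8 for C5ar2, 41.5 for C3ar1 and 24.3 for C5ar1. These percentiles describe the libraries and carry no test.

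In C3_KO against WT, none of the 5 genes passed the test. C3 stood at a log2 fold change of -0.76 (SE 0.49, 95% interval -1.83 to 0.31, edgeR adjusted p = 0.765), an interval that covers both lower and higher levels. C5ar2 stood at 0.60 (SE 0.36, unadjusted p = 0.116, edgeR adjusted p = 0.765) and Hc at 0.62 (SE 0.68, edgeR adjusted p = 0.830). C3ar1 and C5ar1 both stood at 0.12, with SE of 0.32 and 0.33. The groups overlapped for 5 of 5 genes, where 3.04% of all genes tested did not overlap, 1.32% with C3_KO higher and 1.72% with C3_KO lower. Among all 30660 genes edgeR called 0 (0%), with 1909 genes (6.23%) at an unadjusted p under 0.05. DESeq2 called 82 genes, limma-voom 5 and limma on log2(FPKM + 1) 1, none of them a member. EdgeR called 8 without S1pr1_KO replicate 3 and 3 without C3_KO replicate 4. The log2 fold change of C3 was -0.32 without WT replicate 1, and that of C3ar1 turned to -0.16 without C3_KO replicate 4.

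In S1pr1_KO against WT, the point estimates of C3 and the C5 gene were higher and did not pass. C3 stood at a log2 fold change of 0.68 (SE 0.49, 95% interval -0.38 to 1.75, edgeR adjusted p = 0.514). Hc stood at 1.31 (SE 0.69, 95% interval -0.17 to 2.78, edgeR adjusted p = 0.372), a 2.47-fold difference between means of 10.6 ± 7.03 CPM in S1pr1_KO and 4.28 ± 2.45 CPM in WT (SD, n = 4 each). C3ar1 stood at 0.46 (SE 0.32), C5ar1 at 0.25 (SE 0.33) and C5ar2 at -0.07 (SE 0.36). Of these 5 genes, 0 had groups that did not overlap, against 7.58% of all genes, and edgeR called 0 of 30660 (0%), with 4743 (15.5%) at an unadjusted p under 0.05. This comparison shares its WT tumours with that of C3_KO.

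These values depended on the tool and on single tumours. With limma-voom, which weights libraries by quality, C3 stood at 1.27 (adjusted p = 0.0280) and Hc at 1.64 (adjusted p = 0.0336). Both were among the 7828 of 30660 genes that it called. DESeq2 called 955 genes and neither of the pair. Without S1pr1_KO replicate 3, edgeR called 1330 genes in all, and C3 stood at 1.04 (edgeR adjusted p = 0.127) and Hc at 1.69 (edgeR adjusted p = 0.106), within ranges over all alternatives of 0.0280 to 0.958 for C3 and 0.0336 to 0.758 for Hc. Without C3_KO replicate 4, which is not in the comparison and shares its estimate of the spread, edgeR called 32 genes, and 9, 2 and 1 without C3_KO replicates 1 and 3 and S1pr1_KO replicate 2. Without S1pr1_KO replicate 1 the log2 fold change of C3 was 0.37, and without WT replicate 1 it was 1.13. It was 0.21 without C3_KO replicate 3 and S1pr1_KO replicates 1 and 4, the libraries that stood apart in milk or salivary transcripts. For Hc the value was 1.702 without WT replicate 2 and 0.88 without S1pr1_KO replicate 2. C5ar2 had no stable direction and stood at 0.26 without WT replicate 1, 0.08 without S1pr1_KO replicate 3 and 0.01 without S1pr1_KO replicate 4.

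**Figure D3:**
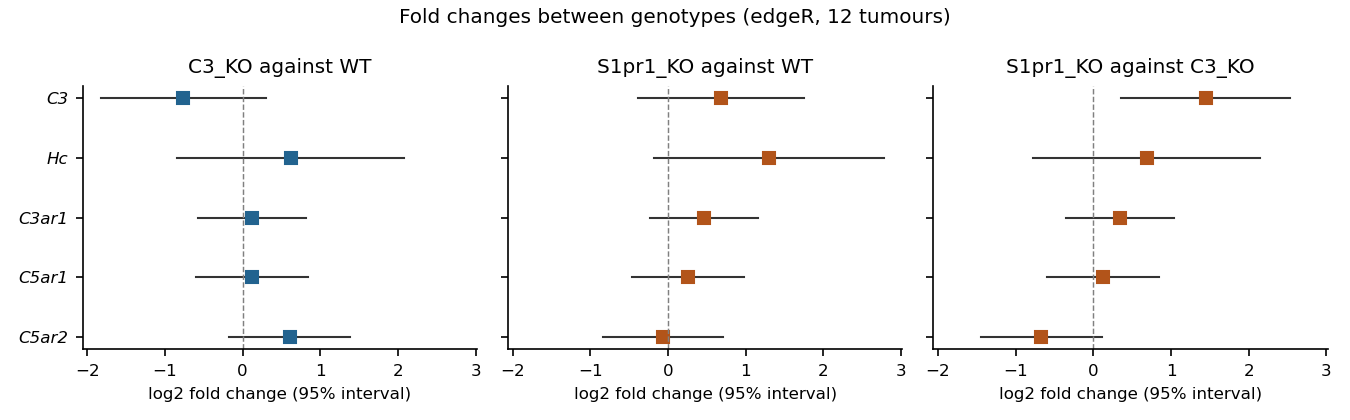
Log2 fold change of each gene with its 95% interval from edgeR, 1 panel per comparison, positive where the first-named genotype is higher. The interval excludes 0 in 1 of 15 cases, C3 in S1pr1_KO against C3_KO at 1.44, which does not pass adjustment over all genes.

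Between the knockout strains, C3 showed the widest difference of the 5 genes. In S1pr1_KO against C3_KO its log2 fold change was 1.44 (SE 0.50, 95% interval 0.36 to 2.53, unadjusted p = 0.0128, edgeR adjusted p = 1.00), or 2.72-fold, and 3 of 4 S1pr1_KO tumours lay above all C3_KO tumours. The estimate lay between 0.80 and 1.77 over all alternatives, with 1.77 without S1pr1_KO replicate 3 and 0.80 without the 3 libraries named above for milk or salivary transcripts. C5ar2 lay the other way, at -0.67 (SE 0.36, unadjusted p = 0.0851, edgeR adjusted p = 1.00). Hc stood at 0.68, C3ar1 at 0.35 and C5ar1 at 0.13, and none passed. Groups overlapped for 5 of 5 genes, where 1.31% of all genes did not overlap, and edgeR called 0 of 30660 (0%), with 1042 (3.4%) at an unadjusted p under 0.05. DESeq2 called 114 genes and limma-voom 0, and edgeR called 2, 1 and 3 without C3_KO replicates 1, 3 and 4. Without those 3 libraries, C3ar1 turned to -0.12 and C5ar1 to -0.067.

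Another annotated gene overlaps C5ar2. Gm26473, a gene of 127 bases, lies within an exon of C5ar2 on the same strand, outside the coding part, and covers 3.57% of the length of C5ar2. Its counts came to 17.3, 5.67, 32.7 and 6.81% of those of C5ar2 in S1pr1_KO tumours, 28.9, 22.8, 11.5 and 8.35% in C3_KO tumours, and 20.3, 36.3, 31.6 and 23.9% in WT tumours. The share was thus largest in WT as a group, with S1pr1_KO replicate 3 and C3_KO replicates 1 and 2 within the WT range. If these counts are taken off C5ar2, its log2 fold change is 0.76 in C3_KO against WT, 0.14 in S1pr1_KO against WT and -0.62 in S1pr1_KO against C3_KO. If they are added, the values are 0.51, -0.20 and -0.71. Which treatment is right depends on how the authors assigned shared reads, which is not given in the sources used here. Counts of the antisense gene Gm13449 came to no more than 4.54% of those of Hc, and counts of Mir6978 to no more than 0.0914% of those of C3.

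The balance between the receptors, and of the receptors to macrophage markers, was compared as log2 ratios within each tumour. The log2 ratio of C5ar2 to C5ar1, which share the ligand C5a and are neighbouring genes, averaged 0.69 ± 0.48 in S1pr1_KO, 1.38 ± 0.70 in C3_KO and 0.95 ± 0.69 in WT (SD, n = 4 each). The log2 ratio of C3ar1 to C5ar1 averaged 1.38 ± 0.29 in S1pr1_KO, 1.08 ± 0.66 in C3_KO and 1.20 ± 0.28 in WT (SD, n = 4 each). None of 12 comparisons of 4 ratios between genotypes passed a two-sided exact permutation test, where 0.0286 is the smallest p that 4 against 4 tumours allow. The lowest was the ratio of C5ar1 to macrophage markers in S1pr1_KO against WT, which differed by -0.23 on the log2 scale (exact p = 0.0857, adjusted over 12 tests p = 0.735). Ratios between genes are on the CPM scale and describe differences between tumours, not which receptor is more abundant.

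Macrophage markers were set beside the receptor genes. The summed level of 10 macrophage markers, among them Csf1r, Adgre1 and Lyz2, was 325 to 500 CPM in S1pr1_KO, 223 to 425 CPM in C3_KO and 273 to 375 CPM in WT, and none of the 10 was at 0 in any tumour. Their mean log2 CPM fell into 6 tumours from 3.61 to 3.89 and 6 from 4.27 to 4.72, so no pooled correlation is given. All 3 genotypes occurred on each side, but unevenly. The lower 6 were WT replicates 1, 3 and 4, C3_KO replicates 2 and 3 and S1pr1_KO replicate 3. C3ar1 lay at 4.59 to 7.21 CPM in the 6 tumours with the lower marker scores and at 8.83 to 14.4 CPM in the 6 with the higher ones. Hc was parted as well, at 1.45 to 4.57 CPM in the lower and 7.39 to 18.6 CPM in the higher set. C3, C5ar1 and C5ar2 overlapped between the sets. The share of all genes parted by this split, which was chosen after seeing the scores, was not computed. Within these sets of 6, the Pearson r of C3ar1 with the score was 0.09 (exact p = 0.871) and 0.34 (exact p = 0.503), and neither passed. For C5ar1, r was 0.68 (rho 0.43, exact p = 0.178) in the lower and 0.70 (rho 0.26, exact p = 0.142) in the higher set. For C3, r was 0.23 in the lower and 0.86 in the higher set (rho 0.89, exact p = 0.0236, adjusted over 10 relations p = 0.236). For Hc, r was -0.46 (exact p = 0.357) in the lower and 0.43 (exact p = 0.400) in the higher set. For C5ar2, r was 0.82 (exact p = 0.0750) and -0.27 (exact p = 0.603). None passed adjustment over 10. The part of macrophage content in the receptor values was not tested.

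Hc ran up with stromal and down with epithelial markers across tumours. Over 12 tumours its log2 CPM had a Pearson r of 0.88 (permutation adjusted p = 0.00617) and a Spearman rho of 0.90 (adjusted p = 0.00575) with the mean of 7 fibroblast markers such as Pdgfra, Dcn and Lum. With 6 dendritic cell markers, r was 0.88 and rho 0.92 (permutation adjusted p = 0.00617 and 0.00300). With 6 luminal epithelial markers such as Epcam, Krt8 and Krt18, r was -0.88 and rho -0.86 (permutation adjusted p = 0.00617 and 0.00663). In each of the 3 genotypes, the tumour with the highest luminal score had the lowest Hc. After leaving out the 2 tumours farthest from the median of the marker score, r was 0.84 for fibroblast, 0.83 for dendritic cell and -0.89 for luminal markers. With genotype means subtracted, r was 0.87, 0.87 and -0.89, while the permutation p within genotypes, adjusted over 50, was 0.0575, 0.0781 and 0.0781.

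The summed fibroblast markers were 1480 to 2421 CPM in S1pr1_KO, 1429 to 2823 CPM in C3_KO and 1006 to 2824 CPM in WT, with none of the 7 genes at 0. C3ar1 also ran against the luminal markers, with r of -0.80 and rho of -0.79 (permutation adjusted p = 0.0114 and 0.0195), and -0.81 without the 2 farthest tumours. In all, 50 relations were computed, 10 between members and 40 with marker lists, and 9 passed by both measures before any tumour was set aside. Among these 9 were the pooled relations of macrophage markers with Hc, C3ar1 and C5ar1. Their r are not given, because the macrophage scores fell into separate sets of tumours. The relations within those sets, given above, are not among the 9, and none of them passed adjustment. Hc also ran up with adipocyte markers (r 0.83, rho 0.80, permutation adjusted p = 0.011 and 0.0195). With B cell markers its r was 0.73 and rho 0.83 (permutation adjusted p = 0.0197 and 0.0167). Without the 2 farthest tumours, these r were 0.71 for adipocyte and 0.58 for B cell markers. None of the 9 involved C3 or C5ar2. With genotype means subtracted 0 passed, and without the 3 milk-rich or salivary-rich libraries 5 did, among them neutrophil markers with C5ar2, at r of -0.85. That relation did not pass over all 12 tumours, at r of -0.53 (permutation adjusted p = 0.125). Several neutrophil markers were very low: Ly6g, Retnlg, Mmp8 and Cxcr2 lay at no more than 0.755 CPM outside C3_KO replicate 3. Points share a library, and all lists depend on the mix of cells in it.

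**Figure D4:**
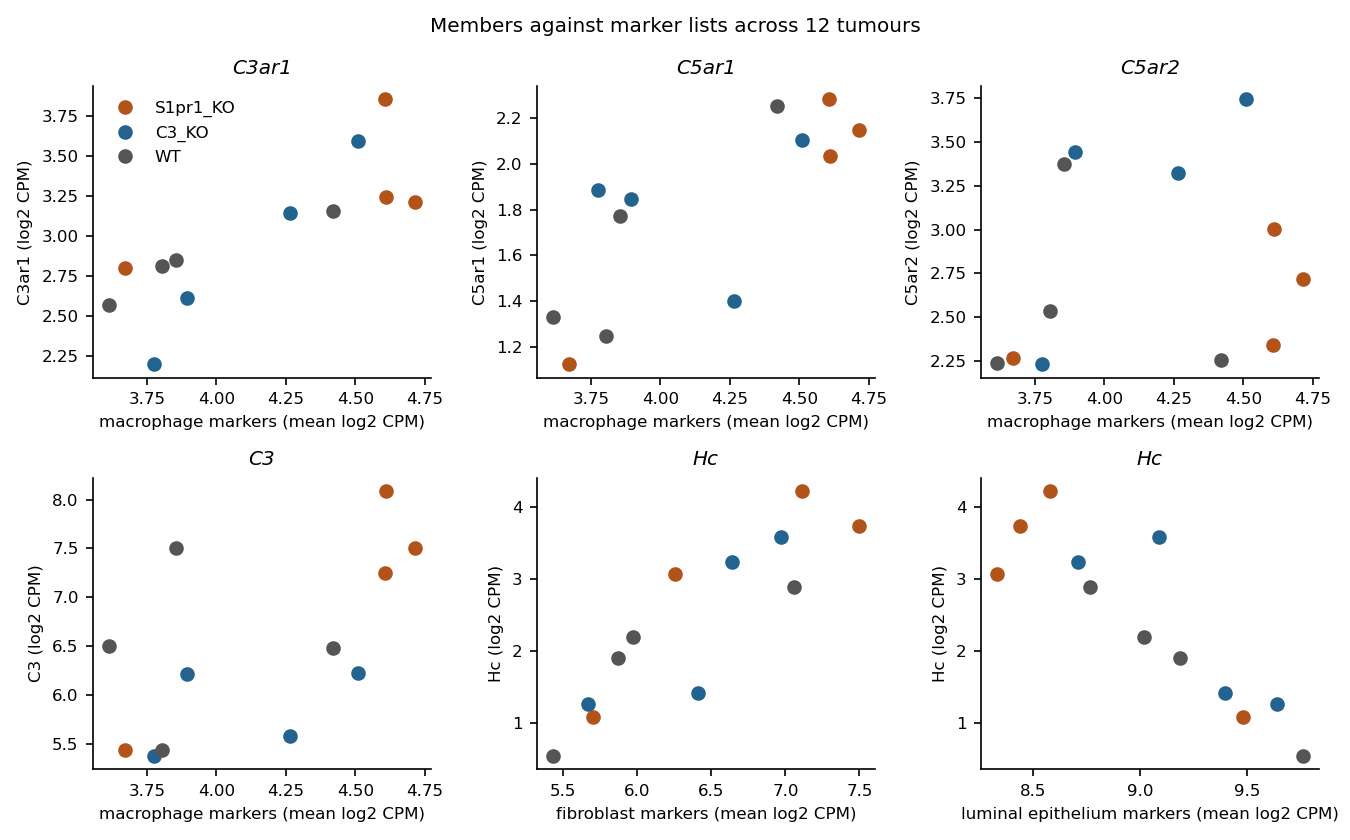
Log2 CPM of a gene (y axes) against the mean log2 CPM of a marker list (x axes), 1 point per tumour, coloured by S1pr1_KO, C3_KO and WT. Macrophage scores split into 6 tumours at 3.61 to 3.89 and 6 at 4.27 to 4.72; Hc runs up with fibroblast markers (r = 0.88) and down with luminal markers (r = -0.88) across all 3 genotypes.

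Among the 5 genes themselves, all 10 pairwise r were positive, from 0.12 to 0.67, and none passed adjustment over the 50 relations. The highest was Hc with C3ar1, at r of 0.67 and rho of 0.69 (permutation adjusted p = 0.0772 and 0.0639), or 0.76 without the 2 farthest tumours. C3 and C5ar1 had an r of 0.60 (rho 0.50, permutation adjusted p = 0.125), or 0.54 without the 2 farthest tumours. The neighbouring receptor genes C5ar1 and C5ar2 had an r of 0.15 (rho 0.06, permutation adjusted p = 0.718). C3 and Hc had an r of 0.39 (rho 0.48, permutation adjusted p = 0.352), which was -0.01 without S1pr1_KO replicates 1 and 2, so it rested on those tumours.

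The genes most like each member were listed as a description. Among 13035 genes compared by Pearson r of log2 CPM over the 12 tumours, those most like C3 were the leukocyte PI3-kinase subunit Pik3cd at 0.86, Oat at 0.85, the carboxylesterase Ces1d at 0.85, Gfpt2 at 0.84 and the PI3-kinase regulator Pik3r5 at 0.83. For Hc they were Osgin2 at 0.98, Slc26a8 at 0.97, Ms4a4d at 0.95, the matrix proteoglycan Lum at 0.95 and Itgbl1 at 0.95, and Lum is also on the fibroblast list. For C3ar1 they included Otulinl at 0.94, the lysosomal protease Ctss at 0.92, Ms4a7 at 0.92 and Dtx3l at 0.90. Ctss and Ms4a7 are known from macrophages.

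For C5ar1 the nearest were Stard9 at 0.91, Ttc39b at 0.89, the cholesterol exporter Abca1 at 0.88, fibronectin Fn1 at 0.88 and Qki at 0.88. For C5ar2 the values were lower, with Bahcc1 at 0.80, the apoptosis protease Casp9 at 0.79, Galm at 0.78, Tspan8 at 0.76 and Zfp438 at 0.75. These genes were picked as the highest of many and their values carry no test.

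The other genes of the pathway were counted by role, and none passed in any of the 3 comparisons, in either direction, where the share of all genes called was 0%. Of 17 genes for steps that activate C3, 14 were tested, with a median log2 fold change of 0.45 in C3_KO against WT, 0.76 in S1pr1_KO against WT and 0.24 in S1pr1_KO against C3_KO. The medians over all genes were 0.05, 0.03 and -0.03. In the same 3 comparisons the medians of marker lists were 1.05, 2.78 and 1.695 for adipocyte, 0.46, 0.68 and 0.45 for fibroblast, and 0.53, 0.80 and 0.27 for endothelial markers. Cfd and C1s1 were highest in S1pr1_KO replicates 1 and 2, where adipocyte markers were also highest, and the part of cell content in these values was not tested. In S1pr1_KO against WT the smallest p were those of the lectin pathway protease Masp1 at 0.82 and the classical pathway protease C1s1 at 1.09 (edgeR adjusted p = 0.254 and 0.337). In C3_KO against WT, Masp1 stood at 0.49 and C2 at 0.76. In S1pr1_KO against C3_KO, C1s1 stood at 0.70 and C4b at 0.44. The lectin Mbl1 and ficolin Fcnb did not pass the filter on low counts, nor did Mbl2.

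Of 9 regulators of C3b, 8 were tested, with medians of 0.41, 0.58 and 0.19 in the same order of comparisons. The membrane regulator Cd46 stood at a log2 fold change of 1.05 in S1pr1_KO against WT (edgeR adjusted p = 0.420). Clu stood at 1.04 in C3_KO against WT and -1.13 in S1pr1_KO against C3_KO, with 2004 CPM in C3_KO replicate 3 and no more than 688 CPM in any other tumour.

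Of the 5 receptors for larger C3 fragments all were tested, with medians of 0.31, 0.93 and 0.55. Cr2, a B cell receptor for C3d, stood at 5.54 in S1pr1_KO against WT (edgeR adjusted p = 0.241), 2.13 in C3_KO against WT and 3.41 between the knockouts. It was 12.8 and 6.68 CPM in S1pr1_KO replicates 1 and 2 and no more than 1.64 CPM in any other tumour. B cell markers were highest in the same pair of tumours, with a summed level of 2.47 to 122 CPM over S1pr1_KO, 1.17 to 11.5 CPM over C3_KO and 2.37 to 4.19 CPM over WT for 5 genes, and their part in the value was not tested. The shared integrin chain Itgb2 stood at 0.85 in S1pr1_KO against WT (edgeR adjusted p = 0.241), Itgam at 0.44 in C3_KO against WT and Itgax at 0.67 between the knockouts.

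Of 8 genes of the terminal pathway, which follows C5 cleavage, 7 were tested, with medians of 0.06, 0.23 and 0.20. The pore component C7 stood at 2.05 in S1pr1_KO against WT (edgeR adjusted p = 0.295), 0.78 in C3_KO against WT and 1.26 between the knockouts, and was 1.16 CPM in S1pr1_KO replicate 1 and no more than 0.380 CPM elsewhere. Cd59a, which blocks the pore, stood at -0.74 in S1pr1_KO against WT. C8a was the only gene of the list whose groups did not overlap in a comparison, S1pr1_KO above C3_KO, as for 0.476% of all genes, at no more than 0.0476 CPM in any tumour.

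Enzymes that trim anaphylatoxins or can release them outside the convertases did not pass either. Of 4 genes of carboxypeptidases that remove the last arginine of C3a and C5a, counting both subunits of the plasma enzyme, 3 were tested. Their medians were -0.19, -0.50 and 1.31. The membrane enzyme Cpm stood at -1.81 in C3_KO against WT and 1.31 in S1pr1_KO against C3_KO. It was 163 CPM in S1pr1_KO replicate 4, 57.1 CPM in C3_KO replicate 2 and 211 CPM in WT replicate 3, each far above the other 3 tumours of its genotype. The plasma enzyme subunits Cpn2 and Cpn1 stood at 3.36 and -1.12 in S1pr1_KO against WT (edgeR adjusted p = 0.241 and 0.471). Cpn1 was no more than 0.162 CPM in any tumour, the value of WT replicate 1. Cpn2 stood at 1.30 in C3_KO against WT and 2.06 between the knockouts, and it was 1.17 CPM in S1pr1_KO replicate 1 and no more than 0.172 CPM elsewhere. Of 6 other proteases that can cut C3 or C5, 5 were tested, with medians of 0.51, 0.24 and -0.04. Neutrophil elastase Elane stood at 1.07 in C3_KO against WT, 1.56 in S1pr1_KO against WT and 0.49 between the knockouts, at no more than 0.208 CPM in any tumour. Cathepsin L, Ctsl, stood at 0.24 in C3_KO against WT and -0.32 between the knockouts, and was 281 CPM in C3_KO replicate 3 and no more than 174 CPM elsewhere. Prtn3 stood at 0.47 in S1pr1_KO against WT, with 28.1 CPM in replicate 3 of S1pr1_KO and between 6.30 and 9.25 CPM in its other 3 tumours, against 5.16 to 12.3 CPM in WT tumours.

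Downstream of the receptors, 11 of 11 signalling genes were tested, with medians of 0.18, 0.20 and 0.00. Plcb2, a phospholipase driven by G protein-coupled receptors in blood cells, stood at 8.43, 8.11, 4.54 and 6.07 CPM in S1pr1_KO tumours, against 3.15, 3.04, 1.49 and 3.23 CPM in WT tumours. All 4 S1pr1_KO tumours lay above all WT tumours, as for 2.78% of all genes, and the log2 fold change was 1.32 (SE 0.41, edgeR adjusted p = 0.234). Pik3r5, a regulator of the PI3-kinase that these receptors use, stood at 0.71 in S1pr1_KO against WT (edgeR adjusted p = 0.288) and 0.77 between the knockouts, where Plcb2 also stood at 0.77. In C3_KO against WT, Arrb1 stood at 0.68 and Grk5 at 0.28.

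All 9 related chemoattractant receptors were tested, with medians of 0.82, 0.76 and -0.19. In C3_KO against WT, Ltb4r2 stood at 1.99 and the formyl peptide receptor Fpr1 at 1.55 (edgeR adjusted p = 0.765 for both), both highest in C3_KO replicate 3, at 5.22 and 0.735 CPM, where neutrophil markers were also highest. In S1pr1_KO against WT, the chemerin receptors Gpr1 and Cmklr1 stood at 1.20 and 0.80. Between the knockouts, Ltb4r2 stood at -1.24 and Gpr1 at 0.66.

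No signal or factor known to induce C3 transcription passed the test. All 11 were tested, with medians of 0.23, 0.13 and -0.04. The cytokines Il6 and Il1b stood at 2.49 and 2.21 in C3_KO against WT (edgeR adjusted p = 0.765 for both) and at -2.40 and -2.09 in S1pr1_KO against C3_KO. Il6 was 0.203, 0.121, 3.04 and 0.230 CPM in C3_KO tumours, against 0.162, 0.319, 0.0687 and 0.0886 CPM in WT tumours, so the high value was that of C3_KO replicate 3. That tumour also had 36.4 CPM of Il1b, where no other tumour exceeded 4.30 CPM. Its C3, the gene its strain targets, was the lowest of all 12, at 41.6 CPM. WT replicate 4 and S1pr1_KO replicate 3 were close to it, at 43.3 and 43.4 CPM. No relation of these cytokines to C3 was tested. Tnf and Nfkb1 stood at 0.71 and 0.28 in S1pr1_KO against WT. The 4 S1pr1_KO tumours lay above all WT tumours for Tnf, as for 2.78% of all genes. The 4 C3_KO tumours lay above all WT tumours for Nfkb1 at a log2 fold change of 0.23, as for 1.32% of all genes in that comparison.

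C/EBP factors, whose motif occurs 3 times in the C3 stretch, were among these 11. Cebpb was 68.7, 33.6, 173 and 66.7 CPM in S1pr1_KO tumours, 109, 168, 54.1 and 48.8 CPM in C3_KO tumours, and 123, 92.2, 133 and 110 CPM in WT tumours. Its highest level, in S1pr1_KO replicate 3, stood beside one of the lowest of C3. Cebpd was also highest in that tumour, at 122 CPM. These genes were named for their motif after their values were seen, and no relation was tested.

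Relatives of C3 in the thioester protein family did not pass either. Of 6, 5 were tested, with medians of -0.52, 0.23 and 0.44. C4b stood at -0.56 in C3_KO against WT and Cd109 at 0.60, and in S1pr1_KO against WT Mug1 stood at 0.65 and Cd109 at 0.23. Mug1 stood at 1.60 between the knockouts, and none of these passed. Mug1 was 0.437, 0.0297, 0.0351 and 0.936 CPM in S1pr1_KO tumours, against 0.521, 0.0245, 0.307 and 0.0620 CPM in WT tumours. In C3_KO tumours it was no more than 0.329 CPM.

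**Figure D5:**
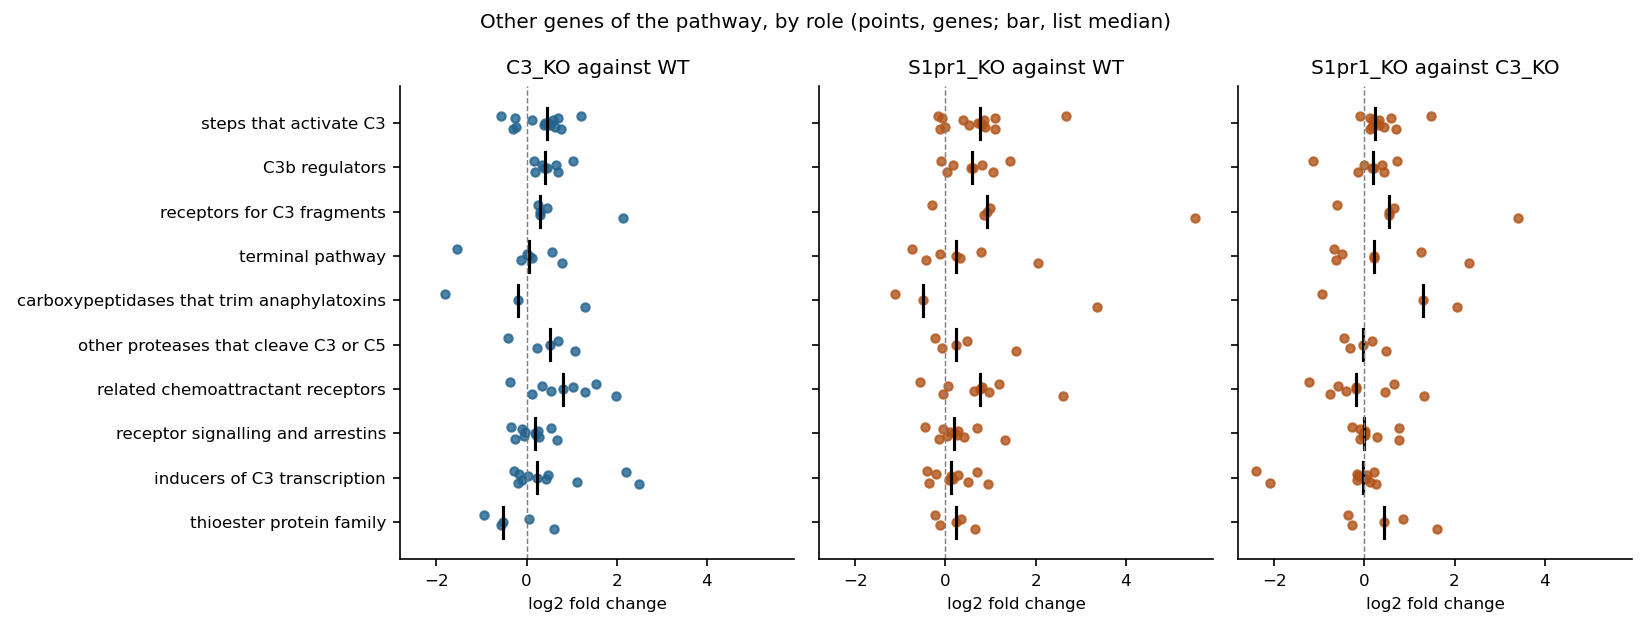
Log2 fold change of each tested pathway gene (points) and the list median (bars) by role, 1 panel per comparison, positive where the first-named genotype is higher. No point passed the test, and the median of the genes that activate C3 is 0.45 in C3_KO against WT, 0.76 in S1pr1_KO against WT and 0.24 in S1pr1_KO against C3_KO.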

How the data were processed

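RNA of 12 primary tumours was sequenced. RNAlater was used for storage and QIAzol for extraction, per the labels' protocols. The authors deposited whole-number counts per gene and, in a second table, FPKM values. Of 682320 deposited FPKM values, 682318 equalled count, gene length and column total combined, within a relative tolerance of 0.0001. Per the submitters' processing notes, StringTie and build GRCm39 (mm39) were named, without version or role. The aligner, the handling of strand and of reads shared between genes, and any filters are each not given in the sources used here. Among counts of 1 to 50, 62.1% were even, so a total may not be a number of independent fragments. No sample column was left unused.

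Counts were tested with edgeR 4.0.16 in R 4.3.3. Low counts were filtered with edgeR's own rule and libraries scaled by TMM (trimmed mean of M values). The quasi-likelihood fit took all 12 libraries with 1 mean per genotype (9 residual degrees of freedom). Two-sided p-values received Benjamini-Hochberg adjustment across 30660 genes, and the threshold was 0.05. The F statistic and fold change gave the SE and 95% interval. Log2 CPM used a prior count of 2. Correlations used 100000 permutations, or all orders within sets of 6 tumours, a split chosen after seeing the marker scores. The fit was tested on simulated data. DESeq2 1.42.0 and limma 3.58.1 were alternatives. Groups came from the genotype label, and replicate numbers follow accession order and only name a library.

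The members always were named. Of each pathway list, up to 4 called genes were to be named and otherwise the 2 of smallest p, and for each member the 5 genes of highest r with average log2 CPM of at least 1, leaving out predicted genes, pseudogenes and antigen receptor segments. The members, the 10 pathway lists with 86 symbols and the 14 marker lists were chosen with earlier results of these data known. Motif shares and promoter stretches came from RefSeq. Cpamd8 was not matched by symbol, and Cmklr2 is another name of Gpr1, counted once. Some genes that the naming rule selects are not reported here.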

Additional observations from a re-analysis of the deposited data

Results flagged for a closer look

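In S1pr1_KO, 1 of the 4 log2 ratios of C5ar1 to macrophage markers lay far from the rest. Replicate 4 was at -2.33, while replicates 1, 2 and 3 lay at -2.57, -2.57 and -2.54. The gap from replicate 4 to the next tumour was 0.875 of the range of the 4 tumours, above the 95% critical value of Dixon's test. Levels and ratios were examined in 27 groups of 4 tumours, and chance alone flags about 1 in 20 such groups. All 4 lay within the range of C3_KO, -2.87 to -1.89, and of WT, -2.56 to -2.08, apart from replicates 1 and 2, which lay just below WT.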

How the results depend on the processing

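The 15 fold changes of the members were recomputed under 21 alternatives each, and C5ar2 under 2 more that were chosen after seeing the data. Of these 321 values, 308 kept their direction and their side of the threshold. With limma-voom, C3 at 1.27 and Hc at 1.64 in S1pr1_KO against WT passed the threshold, among 7828 of 30660 genes that did. C5ar2 in S1pr1_KO against WT reversed to 0.14 with limma-voom, 0.029 with a filter of at least 1 CPM in 4 libraries, 0.091 on log2(FPKM + 1), 0.14 on log2(FPKM + 0.1) and 0.14 less the counts of Gm26473. Without 1 tumour each, it lay between -0.19 and 0.26, reversing at 0.26 on leaving out WT replicate 1, and at 0.08 and 0.01 for S1pr1_KO replicates 3 and 4. Likewise C3ar1 in C3_KO against WT lay between -0.16 and 0.31. Without the 3 milk-rich or salivary-rich libraries, C3ar1 at -0.12 and C5ar1 at -0.067 reversed in S1pr1_KO against C3_KO. The log2 ratio of C3ar1 to C5ar1 in C3_KO against WT reversed to 0.13 and that of C3ar1 to macrophage markers in S1pr1_KO against C3_KO to -0.076 without those libraries. Leaving out 1 tumour each, the ratio of C3ar1 to C5ar1 lay between -0.34 and 0.13 in C3_KO against WT, that of C3ar1 to macrophage markers between -0.17 and 0.078 in S1pr1_KO against WT and -0.019 and 0.23 in S1pr1_KO against C3_KO, and that of C5ar1 to macrophage markers between -0.17 and 0.16 in C3_KO against WT. The cause of these changes was not tested.

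The number of all genes called was 0 with edgeR. In C3_KO against WT it was 82 with DESeq2, 5 with limma-voom, 1 on log2(FPKM + 1) and 0 to 8 leaving out 1 tumour each. In S1pr1_KO against WT it was 955 with DESeq2, 7828 with limma-voom, 10 with no filter, 23 with the CPM filter, 68 with only the genotypes compared, 33 on log2(FPKM + 1), 43 on log2(FPKM + 0.1) and 0 to 1330 leaving out 1 tumour each. In S1pr1_KO against C3_KO it was 114 with DESeq2 and 0 to 3 leaving out 1 tumour each. The relations past the threshold numbered 9, against 0 with genotype means subtracted and 5 without the 3 milk-rich or salivary-rich libraries. No paired analysis was possible because the replicate numbers were given in accession order and no label pairs tumours across genotypes. Every member had 411 counts or more in every tumour.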
